A study of Mus musculus with 6 samples.

Results

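The genes described here encode the collagens, the laminins with nidogen, and the enzymes and chaperone that modify collagen in the cell or cross-link it outside. They were chosen by symbol alone: Col followed by a number, a and a number, the laminin chains, Lox and its relatives, Plod with a number, Nid1 or Nid2, Sparc and Serpinh1. This rule took 60 of the 16081 genes listed. Col4a3bp matched by its symbol but encodes a ceramide transfer protein, so it was kept out of the classes, which hold the other 59: 10 fibrillar collagen chains, 19 genes of the basement membrane, 20 other collagen chains and 10 enzymes, chaperones or collagen binding proteins. Collagen and laminin genes that were not listed, such as Lama1 and Col4a5, were not analysed here.

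Transcripts were sequenced from a mouse lung carcinoma line, Lewis, after 24 hours in DMSO, the vehicle (n = 3), or in SD70, an inhibitor of the histone demethylase KDM4C (n = 3). No other treatment or allele separated the groups. The SD70 dose of this experiment is not given in the sources used here. The methods speak in general terms of independent repeats, but neither they nor the labels say that the 3 sequenced samples of a group were separate cultures. If they were not, p-values measure the spread between these samples, which may be technical. Totals ranged from 15276744 to 17060424 counts per sample, and the genes of the classes and Col4a3bp together took 0.543% to 0.579% of them with DMSO and 0.433% to 0.454% with SD70.

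Collagens are trimers of chains wound into a helix. Fibrillar collagens pack into fibres, whereas collagen IV forms the sheet of the basement membrane together with laminins, which are trimers of an alpha, a beta and a gamma chain, and with nidogen, which links the sheets. In the endoplasmic reticulum, prolines and lysines of the new chains are hydroxylated, the latter by the Plod enzymes, and the chaperone HSP47, the product of Serpinh1, holds the helix together. Outside the cell, Lox and its relatives oxidise lysines so that fibres become cross-linked. In tumours most fibrillar collagen is known to come from fibroblasts, while carcinoma cells themselves make basement membrane components and lysyl hydroxylases.

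After SD70, transcripts of these genes fell more often than they rose, and the changes were small. Of the 59, 35 had enough counts to be tested, and the other 24 never exceeded 15 counts in a sample. At an adjusted p under 0.01, from the quasi-likelihood test of edgeR and adjusted by Benjamini-Hochberg over all 11552 genes tested, 17 of the 35 (48.6%) were lower with SD70, against 24.2% of all genes tested. On the other side, 3 of the 35 (8.57%) were higher, against 25.8% of all genes tested. Serpinh1 and Col6a1 were among those that rose. The median log2 fold change of the 35 was -0.24, and that of all genes tested was 0.00. With a minimum of a 2-fold change as well, 1 gene was called higher (3.29% of all genes tested were), a call that was lost in limma, without DMSO sample 1 and without SD70 sample 3, and 0 were called lower (2.61% of all genes tested were). No tested gene of the classes had a log2 fold change under -0.88, so that the latter count was 0 at any p, and it was also 0 in DESeq2 and limma. No set test was run, so these shares are given side by side as a description. In 20 of the 35 genes every SD70 sample lay below every DMSO sample, and in 6 every SD70 sample lay above. Among all genes tested those shares were 31.6% and 32.8%. Since these are bulk samples, fewer cells of a kind and less RNA per cell cannot be told apart.

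**Figure D1:**
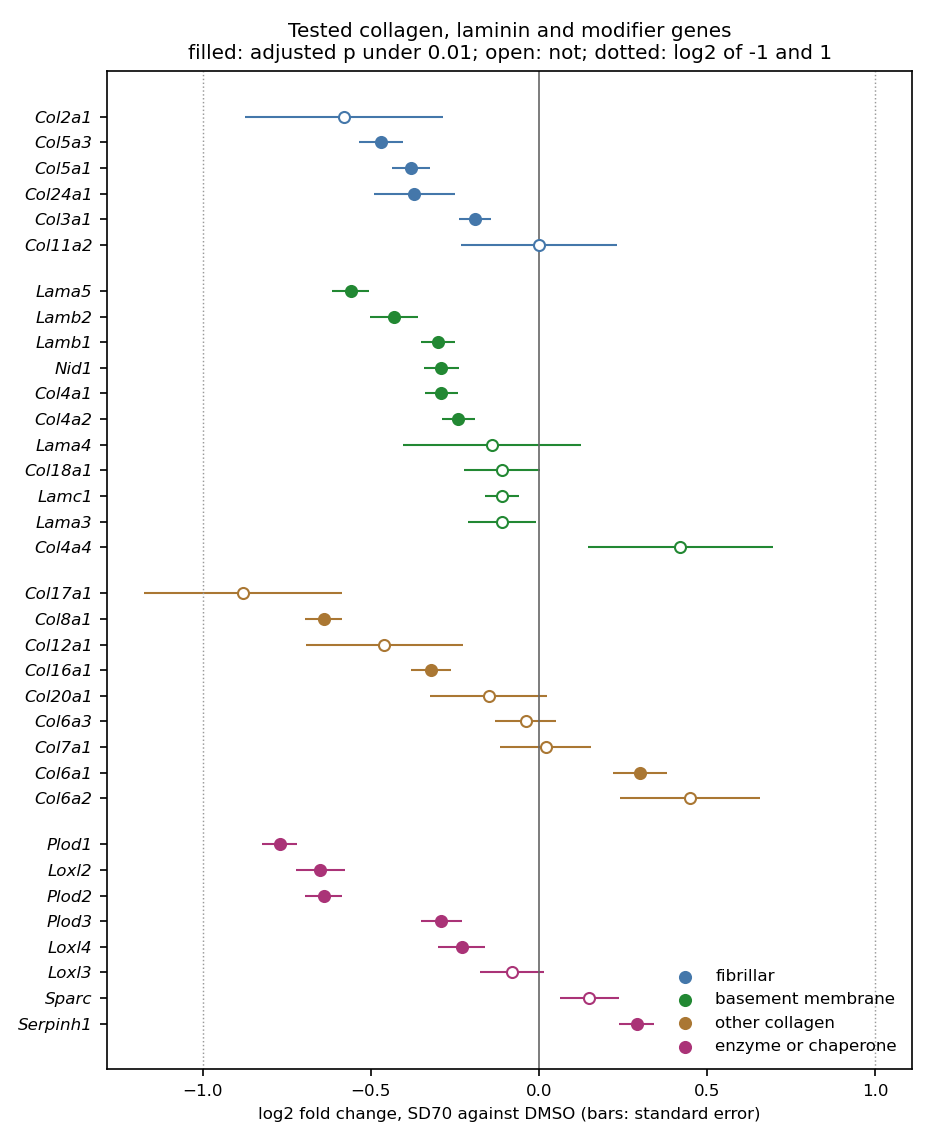
Log2 fold change of SD70 against DMSO (x axis) for 34 of the 35 tested genes, ordered within their class, with the standard error as a bar. Filled points passed an adjusted p under 0.01 and open points did not. None of the genes plotted lies beyond the dotted lines that mark a 2-fold change, and all 3 Plod genes lie to the left of 0.

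Of the 10 fibrillar collagen chains 6 had enough counts to be tested. By edgeR, DESeq2 or limma 0 of the 6 rose, nor did any at an unadjusted p under 0.05. At the adjusted p 25.8% of all genes tested rose. Of the 6, 4 (66.7%) fell, against 24.2% of all genes tested, although by less than 1 log2 unit, and the median of the 6 was -0.37. Col3a1, the single chain of collagen III (NCBI Gene 12825, chromosome 1 of GRCm38 from 45311538 to 45349706), had the highest level per length of any collagen chain, at 144 ± 0.900 FPKM (fragments per unit of transcript length and of library size) with DMSO and 123 ± 6.59 with SD70 (SD, n = 3). In normalized counts, which are scaled to the mean effective library size, Col3a1 had 12733, 12700 and 12640 in DMSO samples 1 to 3 and 10453, 11533 and 11329 in SD70 samples 1 to 3. All 3 SD70 samples were lower, and the groups did not overlap. The fall was small, with a log2 fold change of -0.19 (SE, the standard error, 0.0487, adjusted p = 0.000961 by edgeR).

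Collagen V is a minor component that joins other fibrils and sets their diameter. Its alpha 3 chain Col5a3 had 2223, 1899 and 1767 normalized counts with DMSO and 1450, 1396 and 1400 with SD70, a log2 fold change of -0.47 (SE 0.0649, adjusted p = 5.78e-07). Col5a1 had 2221, 2108 and 1989 with DMSO and 1524, 1731 and 1600 with SD70, a log2 fold change of -0.38 (SE 0.0568, adjusted p = 5.99e-07). In both genes the SD70 samples lay below all DMSO samples. Col5a2, the usual partner of Col5a1 in the trimer, had 1 to 3 counts with DMSO and 2 to 5 with SD70 and could not be tested. Col24a1, a fibrillar collagen known from bone, had 171, 160 and 142 normalized counts against 133, 118 and 114 and a log2 fold change of -0.37 (adjusted p = 0.00818). That call did not hold in DESeq2 (adjusted p = 0.0511), in limma on FPKM (adjusted p = 0.0303 and 0.0181) or without DMSO sample 1, DMSO sample 2, SD70 sample 2 or SD70 sample 3 (adjusted p = 0.0465, 0.0221, 0.0335 and 0.0307).

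The defining chains of collagen I were near 0 in every library. Col1a1 had 2 to 4 counts with DMSO and 0 to 6 with SD70, and Col1a2 had 3 to 4 and 3 to 11. At this depth a difference in either could not be shown. Col2a1, the collagen of cartilage, and Col11a2 were tested at low counts, with means of 21.6 and 29.0 normalized counts with DMSO, and neither passed (adjusted p = 0.0906 and 0.990). Col27a1 reached at most 1 count.

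**Figure D2:**
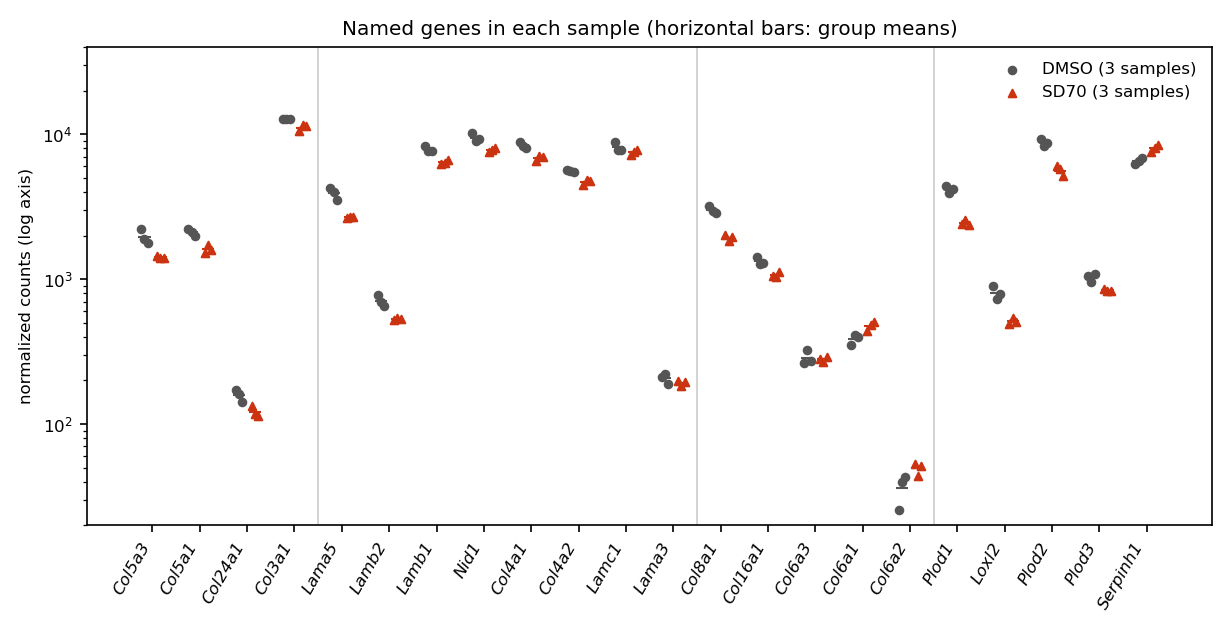
Normalized counts (log axis) of 22 named genes in each of the 3 DMSO samples (grey circles) and 3 SD70 samples (red triangles), with group means as horizontal bars and vertical lines between the classes. The SD70 samples of Col6a1, Col6a2 and Serpinh1 lie above the DMSO samples, those of Lama3, Lamc1 and Col6a3 overlap with them, and those of the other 16 lie below.

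In the basement membrane class 12 of 19 genes were tested, of which 6 (50%) fell and 1 (8.33%) rose, against 24.2% and 25.8% of all genes tested, with a median log2 fold change of -0.19. Both main chains of collagen IV fell by a like amount. Col4a1 (NCBI Gene 12826) had 8813, 8259 and 8054 normalized counts with DMSO and 6579, 7045 and 6998 with SD70. Col4a2 (NCBI Gene 12827) had 5631, 5538 and 5466 with DMSO and 4449, 4836 and 4787 with SD70. Neither gene's groups overlapped. Their log2 fold changes were -0.29 (SE 0.0499, adjusted p = 8.38e-06) and -0.24 (SE 0.0493, adjusted p = 7.85e-05). The ratio of the levels of these chains, which form a common trimer, moved little: Col4a1 made up 20.8% ± 0.369 of the summed FPKM of the 37 collagen chains with DMSO and 20.6% ± 0.0479 with SD70, and Col4a2 14.1% ± 0.202 and 14.4% ± 0.140 (SD, n = 3).

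These genes lie head to head on chromosome 8, Col4a1 from 11198423 to 11312889 and Col4a2 from 11312805 to 11449287 in GRCm38.p6, and are known to share a promoter. The RefSeq promoter windows place the Col4a1 start at 11312826, inside the outer limit of the gene given above. The 22 bases from the Col4a2 start to this Col4a1 start lie within both genes and are not a gap between them. Col4a1 is read across them on the minus strand and Col4a2 on the plus strand. They are shown because these transcripts begin at either end of them and fell together. They cover chr8:11312805-11312826 on the plus strand and are printed without capitals, since the motif described further on does not occur in them.
Col4a1 and Col4a2: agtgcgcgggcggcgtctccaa

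The other collagen IV chains were rare. Col4a4 had 14.6 to 21.1 normalized counts with DMSO and 21.3 to 28.6 with SD70 and did not pass (adjusted p = 0.187), and Col4a3 and Col4a6 had at most 7 counts. Col18a1, whose product releases endostatin, had a log2 fold change of -0.11 (adjusted p = 0.393). Its groups overlapped.

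Laminins changed unequally by chain. Lama5, the alpha chain found in most adult epithelial and vascular basement membranes (NCBI Gene 16776, chromosome 2 from 180176373 to 180225904), had 4249, 4000 and 3542 normalized counts with DMSO and 2625, 2695 and 2679 with SD70. The groups were well apart, and its log2 fold change of -0.56 (SE 0.0554, adjusted p = 1.65e-10) was the most negative of the laminins and of the whole basement membrane class. Lamb1, the main beta chain, fell from 8310, 7648 and 7696 to 6262, 6350 and 6610, a log2 fold change of -0.30 (SE 0.0494, adjusted p = 3.31e-06). Lamb2 fell from 782, 693 and 656 to 519, 537 and 530, a log2 fold change of -0.43 (SE 0.0709, adjusted p = 3.82e-06).

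Lamc1, the gamma chain of most laminins, had 8769, 7747 and 7808 normalized counts with DMSO and 7242, 7487 and 7788 with SD70. One SD70 sample lay among the DMSO samples, and the log2 fold change of -0.11 (SE 0.0519) did not pass (adjusted p = 0.0626).

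Other alpha and beta chains were rarer. Lama3 had 190 to 223 normalized counts with DMSO and 184 to 199 with SD70, with overlapping groups and a log2 difference of -0.11 (adjusted p = 0.366). Lamb3 had 0 to 4 counts with DMSO and 0 to 2 with SD70 and could not be tested. Among alpha chains, Lama5 held 91.3% ± 0.454 of the summed FPKM with DMSO and 88.3% ± 1.3 with SD70, and Lama3 7.55% ± 0.465 and 10.2% ± 0.831. Among beta chains, Lamb1 held 91.5% ± 0.368 and 92.2% ± 0.186. In both conditions Lama5 and Lamb1 were thus the main alpha and beta chains by level per length.

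Nid1, the nidogen that binds laminin gamma chains and collagen IV (NCBI Gene 18073), had 10238, 8928 and 9299 normalized counts with DMSO and 7511, 7778 and 7974 with SD70. The groups did not overlap, and the log2 fold change was -0.29 (SE 0.0516, adjusted p = 1.01e-05), equal to that of Col4a1 to 2 decimals. Some of its counts were not whole numbers, as in Loxl2, Loxl3 and Plod3, and the values of these 4 genes are less certain if reads were shared with other features, which was not tested. Nid2 had at most 2 counts.

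**Figure D3:**
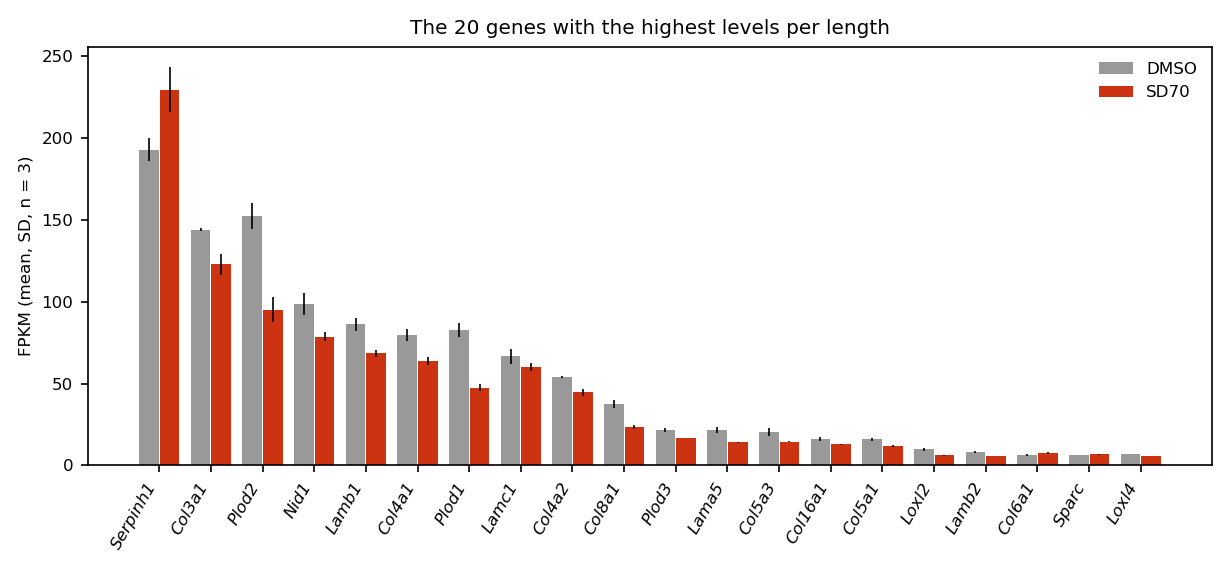
Levels per length (FPKM, mean with SD as error bars, n = 3) with DMSO (grey) and SD70 (red) for the 20 genes of the classes with the highest mean FPKM. Serpinh1 rose from 193 to 230 FPKM, whereas the 9 genes next in level had lower means with SD70.

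Among the 20 other collagens 9 were tested, of which 2 (22.2%) fell and 1 (11.1%) rose, against 24.2% and 25.8% of all genes tested, so that the share that fell was near the background. Col8a1, a short chain network collagen of vessel walls and of Descemet's membrane (NCBI Gene 12837, chromosome 16 from 57624256 to 57754737), had 3220, 2967 and 2865 normalized counts with DMSO and 2008, 1838 and 1960 with SD70. No SD70 sample reached the DMSO range, and the log2 fold change was -0.64 (SE 0.0541, adjusted p = 2.42e-12), the most negative of the collagen chains that passed. Its part of the summed collagen FPKM went from 9.76% ± 0.308 to 7.57% ± 0.585, while that of Col3a1 went from 37.6% ± 0.947 to 39.7% ± 0.669 (SD, n = 3). Col16a1, which associates with fibrils and basement membranes, fell from 1427, 1263 and 1300 to 1049, 1037 and 1118, a log2 fold change of -0.32 (SE 0.0590, adjusted p = 2.14e-05).

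Collagen VI, whose chains form beaded filaments, differed from these. Col6a1 had 350, 414 and 396 normalized counts with DMSO and 439, 485 and 502 with SD70. The SD70 samples were all higher, with a log2 fold change of 0.30 (SE 0.0794, adjusted p = 0.00166), a call that was lost without DMSO sample 1 (adjusted p = 0.0206), without SD70 sample 3 (adjusted p = 0.0139) and in limma on FPKM (adjusted p = 0.0192 and 0.0198). Its neighbour Col6a2 had 25.3 to 43.2 normalized counts with DMSO and 43.7 to 52.8 with SD70 and did not pass (log2 fold change 0.45, adjusted p = 0.0629), although the groups did not overlap. Col6a3, the third chain of the trimer, had 262, 324 and 273 against 280, 268 and 290, and stood at -0.04 on the log2 scale (adjusted p = 0.745). The chains of collagen VI thus did not share a call. Col6a1 and Col6a2 had the same direction, and the change of Col6a2 was less precise at its low counts (SE 0.208). Whether the changes of these 2 genes differ was not tested. Col17a1, the hemidesmosomal collagen, had the most negative log2 fold change of all 35 genes, -0.88, at 21.1 to 28.3 against 11.0 to 14.2 normalized counts, and lay just outside the threshold (adjusted p = 0.0103). Col7a1, the anchoring fibril collagen, was at 0.02 (adjusted p = 0.915).

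The lysyl hydroxylases all fell. Each of the 3 passed (100%, against 24.2% of all genes tested lower), with a median log2 fold change of -0.64, and their summed level went from a range of 243.8 to 270.0 FPKM with DMSO to 149 to 165 with SD70. Plod1, which hydroxylates lysines in the helix (NCBI Gene 18822, chromosome 4 from 147909753 to 147936776, minus strand), had 4393, 3949 and 4203 normalized counts with DMSO and 2395, 2568 and 2377 with SD70. It fell by 41.5%, a log2 fold change of -0.77 (SE 0.0523, adjusted p = 8.03e-15), the most negative of the genes that passed. Plod2, the telopeptide lysyl hydroxylase known as a hypoxia-inducible gene in tumours (NCBI Gene 26432), had 9265, 8338 and 8710 against 6021, 5719 and 5113, a log2 fold change of -0.64 (SE 0.0551, adjusted p = 8.24e-12). Plod3, which also glycosylates hydroxylysine, had 1050, 959 and 1081 against 856, 832 and 834, a log2 fold change of -0.29 (SE 0.0609, adjusted p = 9.91e-05). In none of the 3 did the groups overlap. Per length, Plod2 led, at 152 ± 8.04 FPKM with DMSO and 95.2 ± 7.72 with SD70, before Plod1 at 82.9 ± 4.32 and 47.4 ± 2.07 and Plod3 at 21.3 ± 1.21 and 16.8 ± 0.220.

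Of the lysyl oxidases 3 of 5 were tested and 2 fell (66.7%, against 24.2% of all genes tested), of which Loxl4 lost its call in most fits with 1 sample left out. Loxl2 (NCBI Gene 94352), which cross-links collagen IV among other substrates, had 896, 733 and 784 normalized counts with DMSO and 493, 543 and 505 with SD70. Its SD70 samples were all lower, and the log2 fold change was -0.65 (SE 0.0728, adjusted p = 2.14e-09). Loxl4 was at -0.23 (adjusted p = 0.00518), with 580 to 603 against 492 to 517 normalized counts and separate groups, but did not pass in DESeq2 or in 5 of the 6 fits that left out 1 sample, with adjusted p of up to 0.0242. Loxl3 overlapped between the groups and was at -0.08 (adjusted p = 0.489). Lox itself, the founding member of the family, had 6 to 13 counts with DMSO and 1 to 7 with SD70, and Loxl1 3 to 9 and 3 to 5, both too few to be tested.

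Serpinh1 went the other way from the hydroxylases. This collagen chaperone (NCBI Gene 12406, chromosome 7 from 99345375 to 99353239, minus strand) had 6266, 6550 and 6807 normalized counts with DMSO and 7483, 8016 and 8425 with SD70. No SD70 sample fell within the DMSO range, and the log2 fold change was 0.29 (SE 0.0513, adjusted p = 1.23e-05). At 193 ± 7.05 FPKM with DMSO and 230 ± 13.9 with SD70 it had the highest level per length of the 59 genes in both conditions. Sparc, a secreted protein that binds collagen, had 246 to 257 normalized counts with DMSO and 265 to 290 with SD70, and did not pass (log2 fold change 0.15, adjusted p = 0.144). Col4a3bp, left out of the classes, fell from 1586, 1535 and 1440 to 1172, 1058 and 1077 normalized counts (log2 fold change -0.46, adjusted p = 1.89e-08).

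Since Plod2 and prolyl hydroxylase genes are known targets of the hypoxia-inducible factor HIF, the core of its binding site was searched upstream of each gene. The windows are the 250 bases before an annotated start in RefSeq GRCm38.p6, and the core was ACGTG or GCGTG on either strand. Of the 60 genes, 40 had a window, and Plod2 and Loxl2 had none. Plod1 and Serpinh1 are shown because they fell most and rose at the highest level, and because each window holds 1 core, in capitals. The Plod1 window is chr4:147936777-147937026, read on the minus strand, with GCGTG from 20 to 16 bases before the start. The Serpinh1 window is chr7:99353240-99353489, read on the minus strand, with CACGT, the reverse complement of ACGTG, from 171 to 167 bases before the start.
Plod1: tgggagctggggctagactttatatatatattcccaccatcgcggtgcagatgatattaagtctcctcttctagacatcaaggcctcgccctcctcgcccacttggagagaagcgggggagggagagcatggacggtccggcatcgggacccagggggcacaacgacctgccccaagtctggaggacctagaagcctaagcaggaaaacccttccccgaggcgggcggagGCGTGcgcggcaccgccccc
Serpinh1: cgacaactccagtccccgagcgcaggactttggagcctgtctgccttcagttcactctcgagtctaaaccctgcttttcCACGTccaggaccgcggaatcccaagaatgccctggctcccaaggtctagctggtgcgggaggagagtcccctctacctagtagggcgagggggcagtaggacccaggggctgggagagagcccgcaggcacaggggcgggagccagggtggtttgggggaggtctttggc

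A core stood in the windows of 9 of the 15 genes that fell and had one, of 1 of the 2 that rose and of 3 of the 9 that did not pass. Of all 32851 windows, 38.6% held a core. By gene, 5796 of the 9284 genes tested with a window (62.4%) held a core in at least 1, so the 9 of 15 (60.0%) is close to the share of all tested genes. A match of this length is a description and not a binding site.

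Genes that act with these proteins, targets of HIF, and genes of the TGF-beta pathway were counted in 7 lists. In the list on prolyl hydroxylation of collagen 9 genes were tested, 5 (55.6%) fell and 1 (11.1%) rose, against 24.2% and 25.8% of all genes tested, with a median log2 fold change of -0.17. The catalytic subunits of the prolyl 4-hydroxylase P4ha1 and P4ha2 went from means of 4346 to 2908 and of 1157 to 798 normalized counts, log2 fold changes of -0.58 and -0.53 (adjusted p = 7.45e-11 and 6.30e-09). P3h3, a relative of the prolyl 3-hydroxylases that is known to act with lysyl hydroxylase, was at -0.62 (adjusted p = 7.75e-05). Against these, P3h2, the prolyl 3-hydroxylase of collagen IV, rose from 187, 172 and 188 to 399, 359 and 403 normalized counts, with separate groups and a log2 fold change of 1.08 (SE 0.0897, adjusted p = 1.41e-12). Thus both prolyl 4-hydroxylase subunits named and all lysyl hydroxylases fell, and P3h2 rose.

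In the list on folding, glycosylation and export 2 of 8 tested genes (25.0%) fell, near the background of 24.2%. By edgeR, DESeq2 or limma 0 rose, where 25.8% of all genes tested rose by edgeR, nor did any at an unadjusted p under 0.05. The 2 that fell were Sec24d, a subunit of the vesicle coat that carries procollagen, and the prolyl isomerase Fkbp14. Sec24d was at -0.47 (adjusted p = 4.87e-09) and Fkbp14 at -0.44 (adjusted p = 0.00308). Fkbp14 did not pass in DESeq2 (adjusted p = 0.0234) or without DMSO sample 2 or SD70 sample 3 (adjusted p = 0.0157 and 0.0316). Of 4 tested procollagen proteases and their partners 0 passed by edgeR, with a median log2 fold change of 0.04. Of all genes tested 24.2% were lower and 25.8% higher. At an unadjusted p under 0.05, for which no share of all genes is given here, 2 of the 4 were higher. DESeq2 and limma also passed 0, while 1 passed by edgeR without SD70 sample 1 and 2 at an adjusted p under 0.05.

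Receptors for collagen and laminin moved further, in both directions. Of 11 tested, 7 (63.6%) fell and 2 (18.2%) rose, against 24.2% and 25.8% of all genes tested, with a median log2 fold change of -0.63. Itga3 and Itga6, alpha subunits of laminin-binding integrins, fell from means of 2444 to 1188 and of 2512 to 1566 normalized counts, log2 fold changes of -1.04 and -0.68 (adjusted p = 1.64e-17 and 1.50e-10). Itga7, another laminin receptor subunit, rose by 0.64 on the log2 scale (adjusted p = 6.86e-07). Ddr2, a receptor for fibrillar collagen, rose from 5284, 5312 and 5070 to 10631, 9550 and 10890 normalized counts, a log2 fold change of 0.99 (SE 0.0519, adjusted p = 8.43e-18). Mrc2, an endocytic collagen receptor that was named after its values were seen, was with Itga3 the other receptor called lower at a 2-fold change, at -1.43 (adjusted p = 7.37e-09).

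Among 9 other components of the matrix 5 (55.6%) fell and 1 (11.1%) rose, against 24.2% and 25.8% of all genes tested, with a median of -0.19. The 5 were 3 in DESeq2 and 2 without DMSO sample 1. Hspg2, which encodes the basement membrane proteoglycan perlecan, fell from a mean of 9078 to 6048 normalized counts, a log2 fold change of -0.59 (adjusted p = 5.03e-12). Emilin1, an elastic fibre glycoprotein, was at -0.62 (adjusted p = 1.25e-09), and Fn1, the fibronectin gene, at -0.23 (adjusted p = 0.00767). The Fn1 call was lost in DESeq2 (adjusted p = 0.0719) and without DMSO sample 1 (log2 fold change -0.13, adjusted p = 0.0455), SD70 sample 1, SD70 sample 2 or SD70 sample 3 (adjusted p = 0.0905, 0.0471 and 0.0109). Fbn1, the gene of the microfibril protein fibrillin, rose from a mean of 298 to 557 normalized counts, a log2 fold change of 0.90 (adjusted p = 1.89e-12).

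Targets of HIF that are not collagen genes were counted because several hydroxylase genes are known to be induced by it. Like the other lists, this one was chosen with earlier results of these data known. All 16 tested passed, 14 of them lower (87.5%) and 2 higher (12.5%), against 24.2% and 25.8% of all genes tested, with a median log2 fold change of -0.72. At a 2-fold change 7 were called lower, where 2.61% of all genes tested were. Adm, Ankrd37, Car9 and Bnip3 were at -1.76, -1.52, -1.42 and -1.18 (adjusted p = 0.000630, 2.16e-12, 7.34e-11 and 4.58e-10). The 2 that rose were Vegfa at 0.17 and Pfkfb3 at 0.57 (adjusted p = 0.00374 and 1.03e-09), both named after their values were seen. Vegfa did not pass in limma (adjusted p = 0.0562 and 0.0578) or without DMSO sample 2, DMSO sample 3 or SD70 sample 3 (adjusted p = 0.0462, 0.0522 and 0.0263). Of the 11 tested ligands, receptors and targets of TGF-beta, a growth factor known to induce collagens, 3 (27.3%) fell and 2 (18.2%) rose, near the background of 24.2% and below that of 25.8%, with a median of -0.06. Tgfb3 and Tgfb1 were at -0.61 and -0.31 (adjusted p = 2.73e-06 and 0.000316), and Skil was at 0.32 (adjusted p = 0.000167), a call lost in limma (adjusted p = 0.0122). Tgfbi, the other that rose, was named after its values were seen, at 1.17 (adjusted p = 0.000953) and means of 11.3 and 25.5 normalized counts, and did not pass in DESeq2 (adjusted p = 0.0200) or without DMSO sample 3 (adjusted p = 0.0102).

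**Figure D4:**
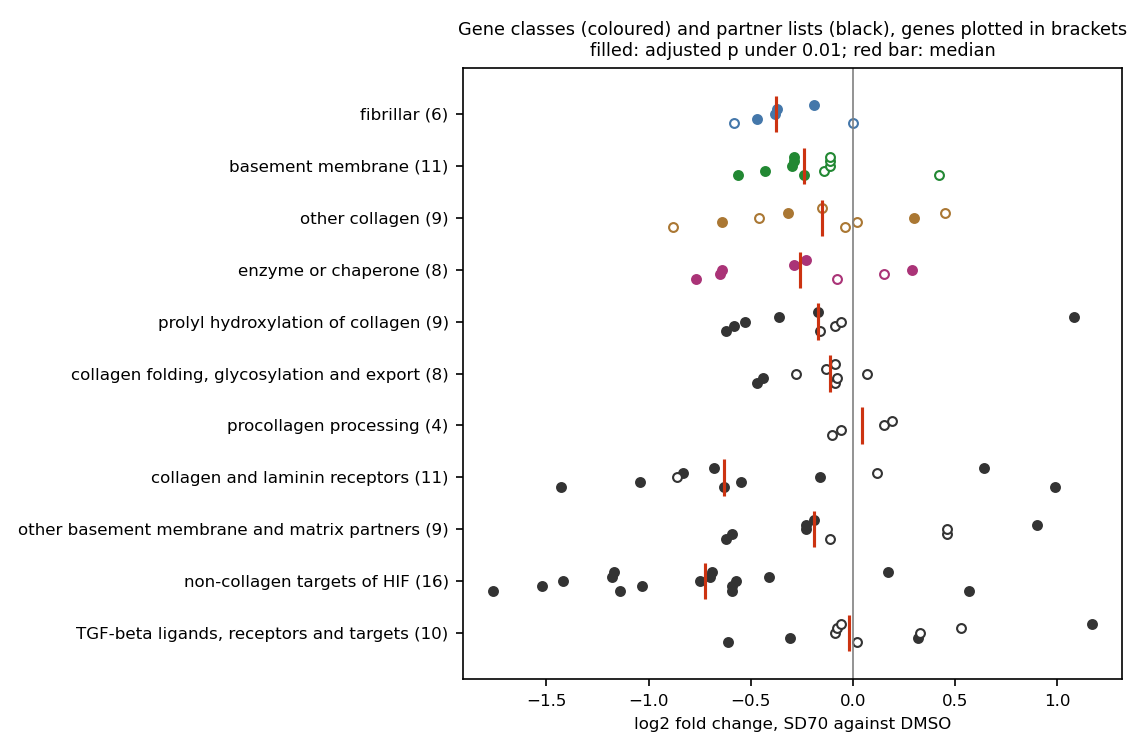
Log2 fold change of SD70 against DMSO (x axis) of tested genes in the 4 classes (coloured) and the 7 lists (black), with the number plotted in brackets. The lists hold genes that act with collagens and laminins, except those on HIF targets and on TGF-beta. Filled points passed an adjusted p under 0.01, and the red bar is the median of the genes plotted. From the plot 1 tested gene of the basement membrane class and 1 of the TGF-beta list were left out. The medians run from -0.72 for the HIF targets to 0.04 for procollagen processing, and those of the 4 classes all lie below 0.

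The labelled cell type was compared with markers. The source label calls the cells lung adenocarcinoma, and of the lung epithelial markers Sftpc had at most 1 count, while Napsa had 65 to 85. Epcam, Cdh1 and Krt19 also had at most 1 count. Krt8 had 3925 to 4150 counts with DMSO and 2382 to 2875 with SD70, and Krt18 77 to 101 and 31 to 41. Both epithelial markers tested thus fell (100%, against 24.2% of all genes tested). Their log2 fold changes were -0.55 and -1.22 (adjusted p = 3.28e-11 and 2.97e-07). Vim had 66077 to 73431 counts with DMSO and 44823 to 51478 with SD70. Of the 4 mesenchymal markers tested, Vim and Twist1 fell (log2 fold changes -0.47 and -0.39), Zeb1 rose (0.63) and S100a4 did not pass (-0.15), and Cdh2 had at most 1 count. Since fibroblasts are the usual source of collagen, their markers were counted beside the collagens. Of 8, 5 were tested, of which 2 rose and 2 fell (40% each, against 25.8% and 24.2% of all genes tested), and their summed normalized counts ranged from 3516 to 3595 with DMSO and from 3639 to 3854 with SD70. Pdgfrb rose from 566 to 578 counts to 1394 to 1632 and Pdgfra fell from 1750 to 1848 to 767 to 914 (adjusted p = 2.09e-17 and 9.33e-17). Dcn had 1020 to 1066 counts with DMSO and 807 to 919 with SD70, and Dpt 181 to 218 and 257 to 313, while Thy1 and Fap had at most 1 count in any sample. The Dcn call (log2 fold change -0.19, adjusted p = 0.00719) was lost in DESeq2 (adjusted p = 0.0208). It was also lost without DMSO sample 1, DMSO sample 2, SD70 sample 2 or SD70 sample 3 (adjusted p = 0.0270, 0.0247, 0.0421 and 0.0152). The summed endothelial markers ranged from 58.5 to 70.0 with DMSO and from 64.6 to 80.3 with SD70, those of immune cells from 23.4 to 32.6 and from 22.0 to 39.6, and those of smooth muscle and pericytes from 38.9 to 49.7 and from 28.8 to 46.7. These sums overlapped between the groups, with most of the endothelial sum in Cdh5, at 56 to 65 counts, and Pecam1 at 4 counts or fewer. Of the immune markers Lyz2 had 11 to 15 counts with DMSO and 15 to 26 with SD70, and Cd79a 10 to 19 and 3 to 11. Their log2 fold changes of 0.79 and -0.79 lay in opposite directions within the sum, and neither passed (adjusted p = 0.0257 and 0.0922). Ptprc had 0 counts in all DMSO samples and 1 to 2 with SD70. The part of any of these in the collagen and laminin values was not tested.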

How the data were processed

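The RNA-seq data were 6 samples of Lewis cells, grouped by the sample labels. The authors aligned BGISEQ-500 reads with HISAT to GRCm38.p6, as the methods state, while the submitters' processing notes name StringTie 1.3.3b and mm8. All 60 genes were found by identifier in the RefSeq GRCm38.p6 table, from which coordinates were taken. The authors deposited an expected count per gene, not normalized and 8.84% to 9.28% not whole, and an FPKM value, scaled by gene length and library size. The labels' extraction protocol speaks of tissue.

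Expected counts were rounded, filtered by filterByExpr (11552 genes kept), scaled by TMM (factors 0.984 to 1.02) and compared by edgeR 4.0.16 under R 4.3.3 (glmQLFit with the robust option, then glmQLFTest), with Benjamini-Hochberg adjustment over all genes tested, and two-sided. Every adjusted p without another tool's name is from this fit. Standard errors were derived from the F statistic. The thresholds were an adjusted p under 0.01, without and with a log2 fold change of 1 or more in size. FPKM was used for levels between genes. Within a group all pairs of samples differed by more than sampling noise (chi-square per gene 2.17 to 5.12). The 3 samples per group limit the precision, as does counting error under about 100 counts: 8 of the tested genes had fewer in the mean.

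The members, classes and lists were chosen with earlier results of these data known. Named were genes called at a 2-fold change, the 5 with the largest change past the adjusted p and the 3 with the highest FPKM in each class, their partner chains, and at most 4 genes past the adjusted p in each list with a mean of at least 100 normalized counts. Other members were named to account for the rest, and 2 genes that the rule names, 1 a member and 1 of a list, are not reported here or plotted. Alternatives were DESeq2 1.42.0 size factors and its Wald test, other filters, limma 3.58.1 on log2(FPKM + 1) and log2(FPKM + 0.1), a replicate block, an adjusted p under 0.05 and leaving out each sample. The tests were first tested on simulated data.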

Additional observations from a re-analysis of the deposited data

How the results depend on the processing

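The count of genes past the adjusted p stayed within 1.5 times of 17 lower and 3 higher under all alternatives run, and none of the 20 changed sign. All 20 passed with DESeq2 size factors, with all genes tested, with at least 10 counts in every sample, which added Col17a1, and with the replicate block. DESeq2's Wald test kept 18 (without Col24a1 and Loxl4), limma on FPKM kept 18 (without Col24a1 and Col6a1), and leaving out 1 sample kept 17 to 19, with only Col24a1, Col6a1 and Loxl4 lost. The count called higher at a 2-fold change, 1, was 0 in limma on log2(FPKM + 1) and log2(FPKM + 0.1), and ranged from 0 to 1 when 1 sample was left out. Of 23 named genes, 20 kept their direction and their side of the adjusted p under every alternative, the others being Col24a1, Col6a1 and Col6a3. Col6a3, which did not pass, was at -0.04 and ran from -0.10 to 0.05 when 1 sample was left out, above 0 without DMSO sample 2. In the lists, 1 fewer sample or DESeq2 gave 1 to 3 genes lower in folding and export, 2 to 5 lower among matrix partners and 0 to 1 higher in procollagen processing, where 2 were higher at an adjusted p under 0.05. The count of 2 higher, in the HIF list and in the TGF-beta list, was 1 in limma and with some samples left out, and for TGF-beta also in DESeq2. DMSO and SD70 samples share the numbers 1 to 3, but no source says that equal numbers were handled together. The correlations of same-numbered deviations over 11552 genes were -0.0686, 0.0477 and 0.114, DMSO 1 deviating most like SD70 2, over the 9624 genes with a mean of at least 100 counts 0.176, 0.254 and 0.157, and over the 6363 with at least 500 counts 0.168, -0.0333 and -0.0361. The pairing check thus depends on the genes used, and the numbers were not treated as pairs. With the replicate block, 17 lower and 3 higher remained, the same genes, and 1 was called at a 2-fold change. Counts of 15 or fewer, as in Col1a1, Lox and Lamb3, limit what can be said of the 24 untested genes.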
